A study of Rattus norvegicus with 26 samples.

Results

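Usp11, Usp4 and Usp15 are 3 paralogous genes for ubiquitin-specific proteases, and their rows were taken by symbol from a table of 34034 genes measured in rat soleus, the slow postural muscle of the lower leg. All 3 passed the filter on low counts, which left 10064 genes. Usp11 was selected because its level differed between the sedentary rats of 2 bred lines and varied within 1 of them, so its values in sedentary rats and its spread are given as a description, with no test. The rats were aged females of generation 44 of lines bred for low or high running capacity (LCR and HCR). The 4 groups were sedentary LCR (n = 8) and sedentary HCR (n = 8), kept without a wheel, and running LCR (n = 5) and running HCR (n = 5), kept as pairs in cages with a running wheel for over 5 months. Each library was treated as 1 animal. The labels do not say which runners shared a cage, and runners were counted as separate replicates.

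Ubiquitin-specific proteases are cysteine proteases that cut ubiquitin from other proteins, which changes whether those proteins are degraded, moved or bound. USP4, USP11 and USP15 share an N-terminal DUSP domain, a ubiquitin-like domain and a split catalytic core. All 3 are known to act on receptors or SMAD proteins of TGF-beta signalling. USP4 and USP15 also work with the spliceosome recycling factor SART3, and USP11 with proteins of DNA double-strand break repair.

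The table holds no sequence, so the start-site sequences of the 3 genes are shown to tell the paralogues apart. Each is the 250 bases before the RefSeq start of the gene in the GRCr8 assembly, which differs from the assembly of the counts, and runs 5′ to 3′ on the strand of the gene. Capitals mark matches, on either strand, to an ETS motif (CCGGAAGT), a YY1 motif (AAGATGGC), the CCAAT box, the GC box (GGGCGG) and an E box (CACGTG).
Usp11, chrX:4043037-4043286, minus strand: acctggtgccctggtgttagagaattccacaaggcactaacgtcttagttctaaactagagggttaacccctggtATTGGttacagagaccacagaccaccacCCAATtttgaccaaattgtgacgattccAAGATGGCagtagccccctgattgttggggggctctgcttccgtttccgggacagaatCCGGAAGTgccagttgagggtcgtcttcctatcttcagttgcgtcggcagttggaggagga
Usp4, chr8:117914405-117914654, plus strand: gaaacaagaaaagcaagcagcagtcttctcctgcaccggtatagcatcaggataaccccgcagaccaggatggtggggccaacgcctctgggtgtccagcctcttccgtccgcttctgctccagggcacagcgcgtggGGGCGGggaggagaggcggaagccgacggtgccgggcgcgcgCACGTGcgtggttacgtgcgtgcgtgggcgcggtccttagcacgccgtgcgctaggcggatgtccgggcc
Usp15, chr7:60734100-60734349, minus strand: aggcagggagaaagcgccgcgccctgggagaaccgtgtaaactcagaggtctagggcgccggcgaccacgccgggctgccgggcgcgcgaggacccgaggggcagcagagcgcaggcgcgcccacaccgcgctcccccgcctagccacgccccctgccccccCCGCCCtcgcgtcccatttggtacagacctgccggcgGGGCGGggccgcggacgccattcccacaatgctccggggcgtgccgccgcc
The Usp11 stretch had a GC content of 51.6% and 8 CpG sites, against 67.2% and 27 for Usp4 and 76.4% and 34 for Usp15. The median over the same stretch of 33469 genes was 51.2% and 5 CpG sites. Usp11 held 1 ETS match, found in 3.10% of those stretches, 1 YY1 match, found in 1.63%, and 2 CCAAT matches, a motif found in 34.0%. The Usp4 stretch held 1 GC box, a motif found in 30.5%, and 1 E box, found in 5.59%, and Usp15 held 2 GC boxes. A TATA box (TATAAA, found in 12.9%) and a cyclic AMP element (TGACGTCA, found in 1.59%) were searched for, with 0 matches in the 3 genes. Such matches describe the letters only, and no measurement in this data set bears on binding there.

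Library totals ranged from 1.10 to 2.52 megacounts (M), and levels are given as CPM, the count of a gene scaled to a library total of 1000000. The titles of 2 libraries, HCR running 5 and LCR running 5, name the line opposite to their description and genotype. The description and genotype were followed, and results are given with and without these libraries. Over 21 genes that separated the sedentary lines at least 2-fold (Usp11 left out), HCR running 5 lay on the HCR side in 20 and LCR running 5 in 4. HCR running 4 lay on the HCR side in only 13, the lowest among HCR runners, which otherwise ranged from 18 to 20. LCR runners ranged from 3 to 4. The genes were chosen to separate the sedentary libraries, so the sedentary values, 20 to 21 in HCR and 0 to 2 in LCR, largely follow from that choice. Slow fibre markers (Myh7, Tnni1 and 5 others) summed to between 26200 and 39300 CPM in the 26 libraries, and no gene of the marker lists was at 0 in all libraries.

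In HCR soleus Usp11 stood at a steady level, whereas in LCR soleus it was low in most rats and near the HCR level in only 1. The 8 sedentary HCR libraries, in order of replicate number, had 51.8, 63.1, 52.3, 37.2, 51.1, 50.6, 46.0 and 44.7 CPM of Usp11. The 5 HCR runners had 41.2, 42.5, 57.3, 59.1 and 52.7 CPM. The 13 HCR libraries thus lay within 37.2 to 63.1 CPM, with sedentary and running rats overlapping throughout.

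The 8 sedentary LCR libraries had 20.0, 2.82, 2.01, 46.8, 4.07, 3.13, 1.80 and 2.58 CPM of Usp11. In 6 of them the level was below 5 CPM, LCR sedentary 1 was intermediate, and LCR sedentary 4 lay inside the HCR range. The 5 LCR runners had 1.11, 22.2, 1.70, 1.24 and 12.5 CPM. Replicates 2 and 5 were above 10 CPM and the other 3 below 5 CPM, and none reached the lowest HCR runner.

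**Figure D1:**
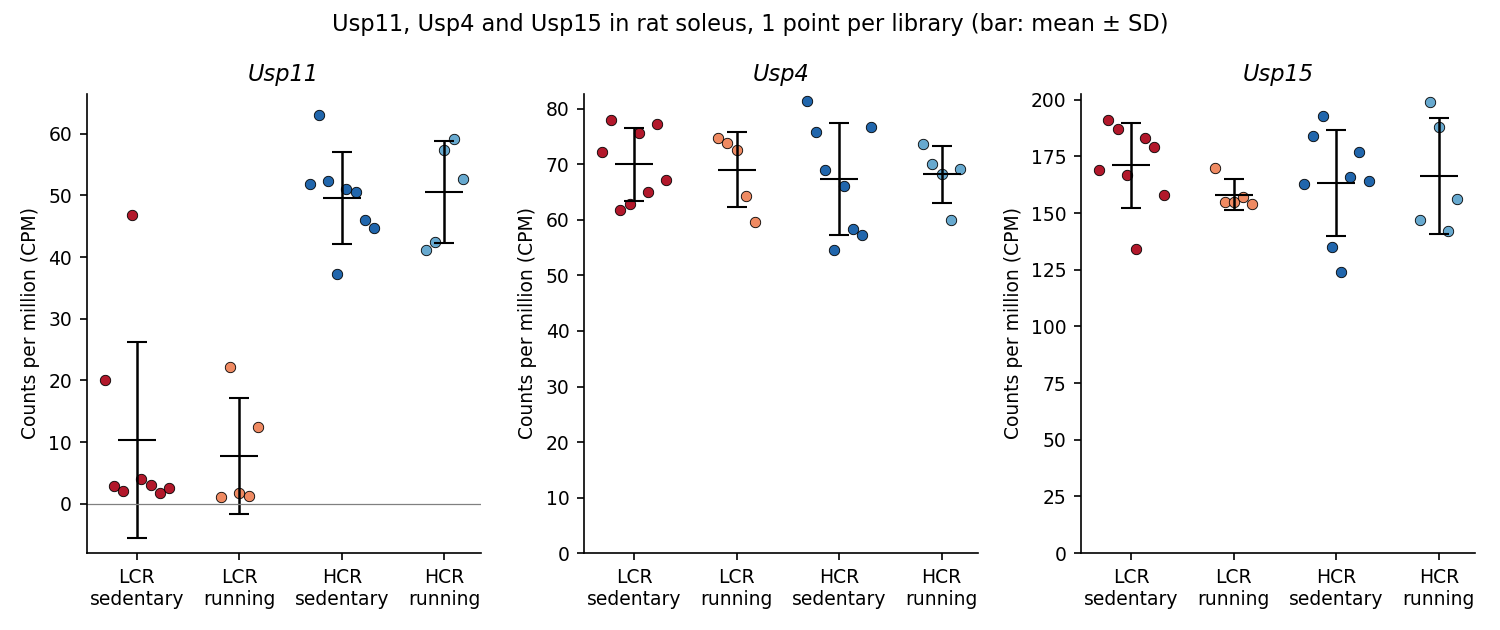
Level of Usp11, Usp4 and Usp15 in CPM, with 1 point per library in replicate order and bars at the group mean ± SD. Usp11 separates the lines except for LCR sedentary 4 at 46.8 CPM, while the 4 groups overlap for Usp4 and Usp15.

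Ordered by mean, Usp11 was at 50.6 ± 8.28 CPM (SD, n = 5) in running HCR, 49.6 ± 7.45 CPM (n = 8) in sedentary HCR, 10.4 ± 15.9 CPM (n = 8) in sedentary LCR and 7.75 ± 9.40 CPM (n = 5) in running LCR. The upper pair of groups, and likewise the lower pair, differed by less than their SDs. Single libraries moved the LCR means, to 5.20 CPM without LCR sedentary 4 and to 4.15 CPM without LCR running 2. The SD in LCR exceeded the mean, so medians are given too. The median was 2.98 CPM in sedentary LCR against 50.9 CPM in sedentary HCR, a 17.1-fold difference. It was 1.70 CPM in running LCR against 52.7 CPM in running HCR, a 31.0-fold difference. The same comparisons of means gave 4.77-fold and 6.52-fold. In bulk muscle, fewer cells of a type and less RNA per cell cannot be told apart. The counts report only the 3′ ends of transcripts, and the 3′ end of Usp11 was not checked for differences between the lines.

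Within LCR the 13 libraries left a gap in the Usp11 level, described here after the values were seen. Of them, 9 lay from 1.11 to 4.07 CPM and 4 from 12.5 to 46.8 CPM, with a 3.08-fold step between the neighbours across the gap. Both LCR groups were on both sides of it, with 6 sedentary and 3 running libraries below and 2 of each above. Set against the HCR mean of 50.0 ± 7.45 CPM (SD, n = 13), the upper 4 reached 25.1% (LCR running 5), 40.0% (LCR sedentary 1), 44.3% (LCR running 2) and 93.7% (LCR sedentary 4). The remaining 9 were at 2.21% to 8.14%.

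The counts behind these levels were small in LCR. The 9 libraries below 5 CPM held 2 to 10 Usp11 counts each, 38 in all over 16.1 M counts. The upper 4 held 16, 39, 45 and 70 counts, together 170 of the 208 in LCR (81.7%), and the 13 HCR libraries held 1111. The exact Poisson 95% interval was 36.5 to 59.2 CPM in LCR sedentary 4, 16.2 to 29.7 in LCR running 2, 14.2 to 27.3 in LCR sedentary 1 and 7.17 to 20.4 in LCR running 5. In LCR sedentary 5, the highest of the lower 9, it was 1.95 to 7.48 CPM, which overlaps only that of LCR running 5 among the upper 4. These intervals cover counting error only.

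**Figure D2:**
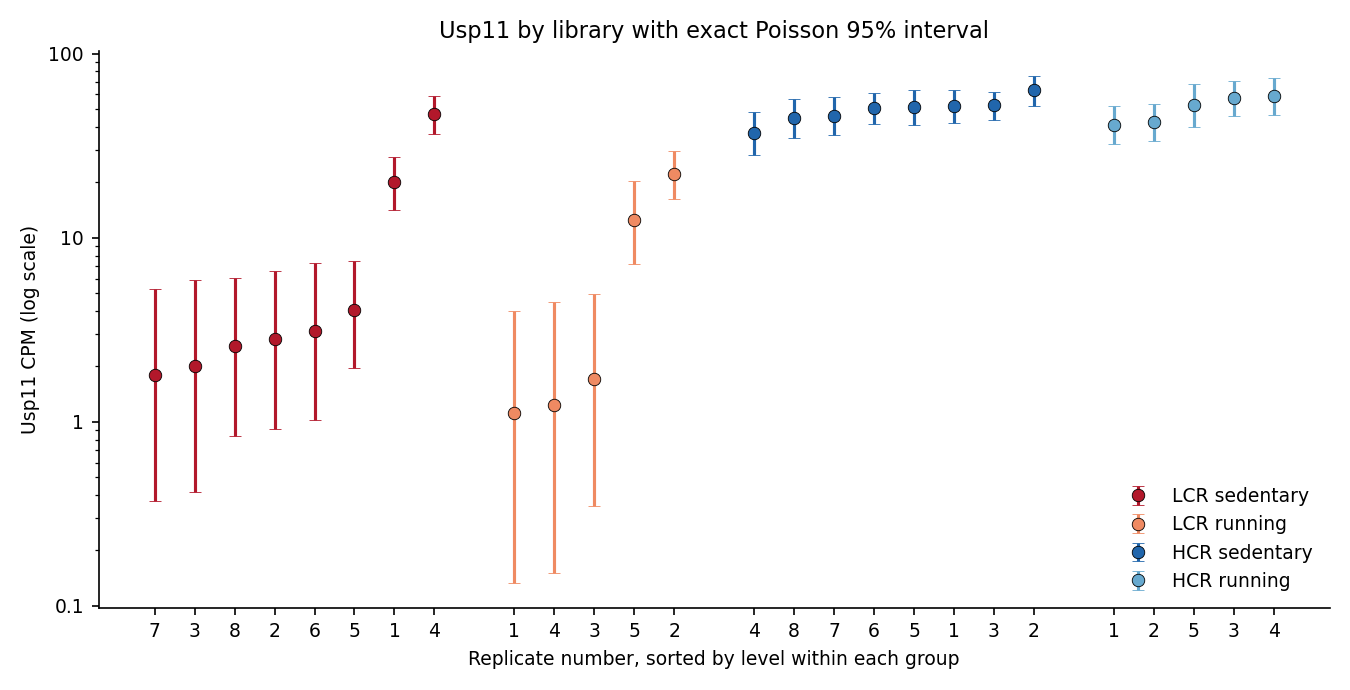
Usp11 CPM on a log axis for each library, sorted within its group, with the exact Poisson 95% interval as bars and the replicate number below. LCR spans 1.11 to 46.8 CPM and HCR 37.2 to 63.1 CPM.

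The spread of Usp11 in LCR was among the widest in the table, and in HCR it was ordinary. The SD of log2 CPM about the group means was 1.52 in LCR, rank 23 of 10064 genes from the widest, and 0.223 in HCR, rank 7366. By the difference between these SDs Usp11 ranked 2. Spread depends on level, so the 2152 genes within 0.5 log2 units of its mean over all 26 libraries (4.13) were used for scale. Their median SD was 0.314 in LCR and 0.338 in HCR, and Usp11 ranked 8 among them in LCR. That mean lies between the Usp11 means of 2.60 in LCR and 5.66 in HCR, so these genes match its level in neither line. Genes within 0.5 log2 units of Usp20 (mean 5.71), near the HCR level of Usp11, had a median SD of 0.237 in HCR. No such set was taken at its LCR level. A total of 76 genes had an SD of at least 1 in LCR, and 2 of these had an SD of at most 0.3 in HCR, namely Usp11 and Serhl2, a serine hydrolase-like gene (SD 1.14 and 0.148).

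The paralogues did not share this spread. The SD of log2 CPM was 0.137 in LCR and 0.183 in HCR for Usp4, and 0.135 and 0.217 for Usp15. In LCR they ranked 9307 and 9337 of 10064 genes from the widest. Among genes within 0.5 log2 units of its own mean, Usp4 ranked 1312 of 1478 in LCR (median SD 0.201). Usp15 ranked 565 of 787 (median SD 0.159), which is less extreme than its rank among all genes. Among the 42 genes of the ubiquitin-specific protease family that were tested, the next widest in LCR after Usp11 was Usp31 at 0.349, and the narrowest was Usp9x, a protease also encoded on the X chromosome, at 0.0885. The biological coefficient of variation fitted by edgeR was 0.839 for Usp11, 0.0955 for Usp4 and 0.120 for Usp15, against 0.156 over all genes.

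**Figure D3:**
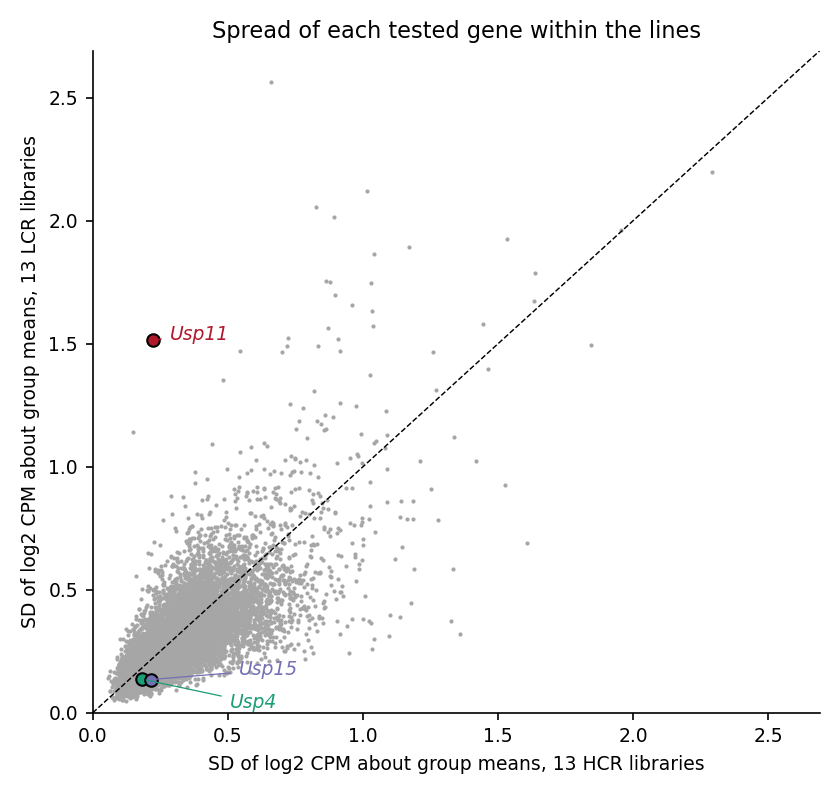
SD of log2 CPM about the group means in the 13 HCR libraries (x axis) against the 13 LCR libraries (y axis), 1 point per tested gene, with equal spread on the dashed line. Usp11 lies at 0.223 and 1.52, while Usp4 and Usp15 lie at no more than 0.217 on either axis.

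Usp4 was level across the 4 groups. It was at 70.0 ± 6.60 CPM (SD, n = 8) in sedentary LCR (lowest 61.8, median 69.6, highest 77.9) and 67.4 ± 10.1 CPM (n = 8) in sedentary HCR (54.5, 67.5 and 81.4). The LCR runners had 74.7, 73.9, 72.6, 64.3 and 59.6 CPM, and the HCR runners 73.7, 70.1, 68.2, 59.9 and 69.1 CPM. All 4 groups overlapped, and their means, 67.4 to 70.0 CPM, differed by less than any group's SD.

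Usp15 was level too. It was at 171 ± 18.5 CPM (SD, n = 8) in sedentary LCR (lowest 134, median 174, highest 191) and 163 ± 23.4 CPM (n = 8) in sedentary HCR (124, 165 and 193). The LCR runners had 170, 155, 155, 157 and 154 CPM, which is 158 ± 6.54 (n = 5). The HCR runners had 147, 199, 188, 142 and 156 CPM, which is 167 ± 25.8 (n = 5). The LCR runners lay inside the range of the HCR runners. In the 4 LCR libraries with more than 10 CPM of Usp11, replicates 1 and 4 of sedentary LCR and 2 and 5 of running LCR, Usp4 was at 72.2, 62.9, 73.9 and 59.6 CPM and Usp15 at 169, 167, 155 and 154 CPM.

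The comparison of the sedentary lines asked how LCR and HCR soleus differ without a wheel. The edgeR quasi-likelihood test called 2.72% of the 10064 genes at an adjusted p of 0.05 (Benjamini-Hochberg). Usp11 was 2.27 higher in HCR on the log2 scale (SE 0.51), a value on which it was selected. Neither paralogue passed. Usp4 differed by -0.09 (SE 0.08, 95% interval -0.264 to 0.0773, adjusted p = 0.645, edgeR) and Usp15 by -0.11 (SE 0.09, -0.285 to 0.0672, adjusted p = 0.589, edgeR).

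The runners are other animals than the sedentary rats, but Usp11 was chosen with earlier results of all groups known. The edgeR test called 0.626% of genes between the running lines. Usp11 was 6.35-fold higher in running HCR (log2 fold change 2.67, SE 0.69, 95% interval 1.25 to 4.09), and every HCR runner lay above every LCR runner, the closest pair by 1.86-fold. This did not pass the adjustment over all genes (adjusted p = 0.0869, edgeR). Without LCR sedentary 4, a library outside this contrast that enters the shared estimate of spread, the adjusted p was 0.0158, and without LCR running 2 it was 0.0377, with a log2 fold change of 3.75. Without the 2 libraries of conflicting title the log2 fold change was 2.82 (adjusted p = 0.197, edgeR), and with their line taken from the title it was 1.58 (adjusted p = 0.938). Usp4 differed by -0.02 (SE 0.11, 95% interval -0.239 to 0.202, adjusted p = 0.987) and Usp15 by 0.08 (SE 0.11, -0.148 to 0.303, adjusted p = 0.911).

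Whether Usp11 differed between the running lines more than its paralogues was tested on log2 ratios of CPM within each library, with a prior count of 2 that draws the ratios of libraries with few Usp11 counts towards 0. The Usp11/Usp4 ratio averaged -0.44 ± 0.33 (SD, n = 5) in HCR runners and -3.67 ± 1.62 (n = 5) in LCR runners. The difference of 3.24 had an exact 2-sided permutation p of 0.00794, the smallest that 252 splits of 5 against 5 allow, and 0.0119 after adjustment over 3 ratios. Because Usp11 was chosen with earlier results of all groups known, the p-values of its ratios are a description and no independent support. Adjustment over 3 ratios does not cover the choice of Usp11 among 10064 genes. The Usp11/Usp15 ratio averaged -1.70 ± 0.35 and -4.86 ± 1.62 (n = 5 each), a difference of 3.16 with the same exact p of 0.00794 and adjusted p of 0.0119. The Usp4/Usp15 ratio averaged -1.26 ± 0.21 and -1.19 ± 0.13 (n = 5 each), a difference of -0.08 (exact permutation p = 0.516). With a prior count of 0.5 the Usp11/Usp4 and Usp11/Usp15 differences were 3.62 and 3.54, each with an adjusted p of 0.0119 by the exact permutation test. Without the 2 libraries of conflicting title the Usp11/Usp4 difference was 3.62 (exact permutation test, adjusted p = 0.0429), and with their line from the title it was 2.53 (0.119). In sedentary rats, given as values only, the differences were 3.02, 3.03 and 0.01.

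**Figure D4:**
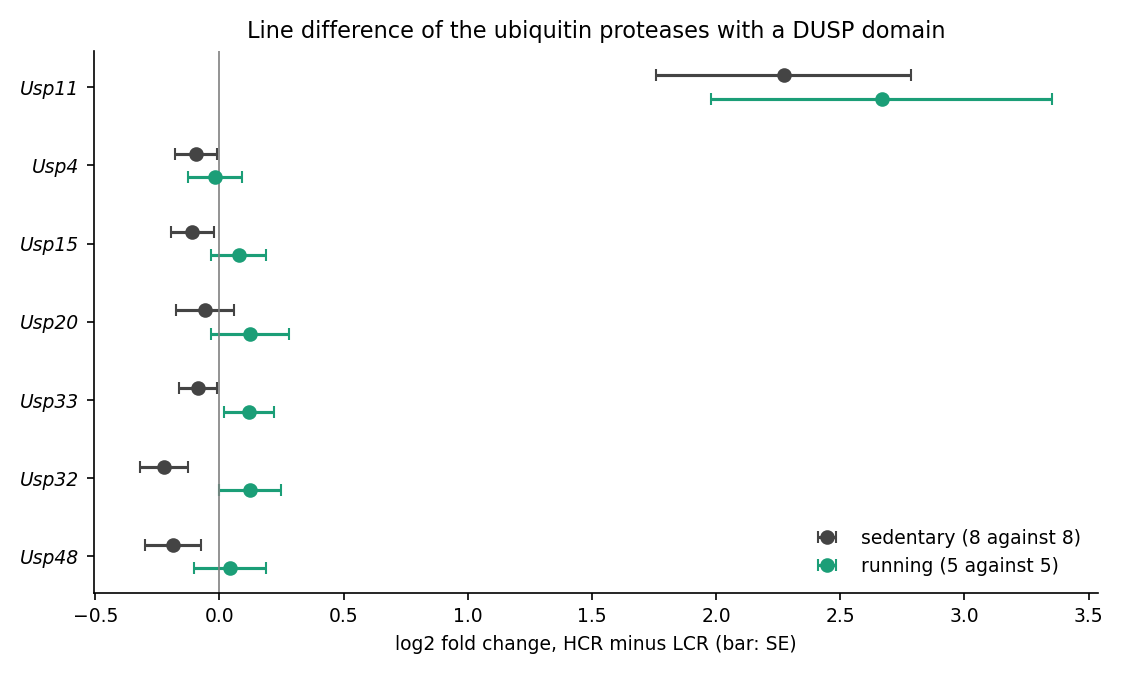
Difference between the lines, HCR minus LCR, as log2 fold change with SE bars, in sedentary (grey) and running (green) rats, for the 7 ubiquitin-specific proteases with a DUSP domain. Usp11 lies at 2.27 and 2.67 and the other 6 lie between -0.22 and 0.12.

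The wheel was not followed by a detectable change of any of the 3 genes. In LCR, where 0% of genes were called, runners differed from sedentary rats by -0.32 (SE 0.75, 95% interval -1.87 to 1.24) for Usp11, -0.00 (SE 0.10, -0.197 to 0.195) for Usp4 and -0.09 (SE 0.10, -0.297 to 0.107) for Usp15. In HCR, where 0.0994% of genes were called (10 genes by edgeR, 79 by DESeq2), the differences were 0.08 (SE 0.49, -0.939 to 1.09), 0.07 (SE 0.10, -0.125 to 0.273) and 0.09 (SE 0.10, -0.111 to 0.294). All 6 adjusted p-values lay from 0.754 to 0.999 (edgeR). The intervals for Usp11 were wide enough to hold more than a 2-fold change either way in LCR. In HCR the Usp11 interval carries the LCR spread, because the fit shares 1 estimate of spread per gene over the 4 groups. The SD of Usp11 log2 CPM was 0.223 in HCR against 1.52 in LCR, so that interval does not describe the HCR libraries alone. The sign for Usp11 in LCR rested on LCR sedentary 4, without which it was 0.55. The count of genes called at 0 in LCR compares with 612 at an unadjusted p under 0.05 and with 2 by DESeq2.

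The test of whether the lines responded differently to the wheel called 0% of genes (592 at an unadjusted p under 0.05, and 0 by DESeq2). The difference between responses was 0.39 (SE 0.90, 95% interval -1.46 to 2.25, adjusted p = 0.975) for Usp11, 0.08 (SE 0.14, adjusted p = 0.969) for Usp4 and 0.19 (SE 0.14, adjusted p = 0.893) for Usp15 by edgeR.

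None of the other ubiquitin-specific proteases with a DUSP domain was called between the lines. Usp20 and Usp33, whose products are known to act on beta-adrenergic receptors, differed between the sedentary lines by -0.06 and -0.09 and between the running lines by 0.12 each. Usp32 differed by -0.22 (adjusted p = 0.226) and 0.12, and Usp48 by -0.19 (adjusted p = 0.437) and 0.04. Apart from Usp11, selected on its sedentary difference, 0 of the 7 genes were called between the sedentary or the running lines, where 2.72% and 0.626% of all genes were. The median of the 7 was -0.09 in sedentary rats, against 0.01 over all genes, and 0.12 in running rats, against 0.00. For the wheel, all 7 lay below 0 in LCR (median -0.16) and above 0 in HCR (median 0.07), against medians of 0.00 over all genes, with 0 called. In LCR, Usp4 lay at only -0.0013 and the sign for Usp11 rested on LCR sedentary 4. All 7 genes were measured in the same libraries, so their signs are not separate observations. Usp33 had the smallest p of the 7 in LCR, at 85.3 ± 5.44 CPM (SD, n = 5) in runners and 98.9 ± 9.09 CPM (n = 8) in sedentary rats (log2 difference -0.19, SE 0.09, adjusted p = 0.793, edgeR). The difference between the lines' responses lay above 0 in all 7 (median 0.21), with 0 called.

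Across the wider ubiquitin-specific protease family, 42 of 52 listed genes were tested. Apart from Usp11 in the sedentary comparison it was selected on, 0 were called in any of the 5 comparisons, where 0% to 2.72% of all genes were. The family median was -0.01 in sedentary and 0.07 in running rats. Of 29 tested deubiquitinases of other families, 1 (3.45%) was called in sedentary rats, near the 2.72% of all genes. This was Uchl1, a ubiquitin hydrolase abundant in neurons, at 33.6 ± 11.7 CPM (SD, n = 8) in HCR against 11.1 ± 4.58 CPM (n = 8) in LCR (log2 fold change 1.51, SE 0.24, adjusted p = 0.000359, edgeR). In runners it was at 20.5 ± 9.38 against 10.1 ± 3.73 CPM (n = 5 each), a difference of 1.07 (SE 0.33, adjusted p = 0.194, edgeR).

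Uchl1 is also 1 of the 10 Schwann cell and nerve markers, whose summed level ranged from 226 to 454 CPM in sedentary HCR, 166 to 261 in sedentary LCR, 141 to 316 in running HCR and 198 to 249 in running LCR. Of the 8 of these markers tested, 7 lay above 0 in sedentary HCR and 5 in running HCR. Only 1 was called, Uchl1 itself, in sedentary rats (12.5% of the 8, beside 2.72% of all genes). In the 4 LCR libraries with more than 10 CPM of Usp11 the summed level was 166 (LCR sedentary 1), 261 (LCR sedentary 4), 249 (LCR running 2) and 198 CPM (LCR running 5), so these held both the lowest and the highest LCR value. Fast fibre markers summed to 2030 to 9630 CPM in sedentary HCR and 2390 to 3950 CPM in running HCR, against 6150 to 12200 and 4830 to 11000 CPM in LCR, and 3 of these 8 markers were called lower in running HCR. The part of either cell composition measure in the Usp11 difference was not tested.

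In TGF-beta signalling, where the 3 proteases are known to act, 34 of 36 listed genes were tested. Of those tested, none of the 5 ligands, 9 receptors, 5 SMADs or 7 inhibitors was called between the lines. This is near the shares of all genes called, 2.72% in sedentary and 0.626% in running rats. Tgfbr1, the type I receptor on which these proteases act, was at 25.5 ± 4.40 CPM in sedentary HCR and 21.4 ± 2.61 CPM in sedentary LCR (n = 8 each, log2 fold change 0.21, SE 0.13, adjusted p = 0.466, edgeR). In runners the difference was -0.04 (SE 0.18, adjusted p = 0.986, edgeR). The ligand gene Inhba, an activin subunit, had the smallest p of the list in runners (-0.62, SE 0.19, adjusted p = 0.168, edgeR).

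Of the 8 TGF-beta target genes, all lay above 0 in sedentary HCR and 2 passed, which is 5.88% of the 34 listed genes tested, beside 2.72% of all genes. Tgfbi, a secreted matrix protein, was at 104 ± 15.3 CPM in HCR against 73.0 ± 9.88 CPM in LCR (n = 8 each, log2 fold change 0.48, SE 0.11, adjusted p = 0.0133, edgeR). Every sedentary HCR library, the lowest at 89.4 CPM, exceeded the highest sedentary LCR library at 87.0 CPM. Id2, an inhibitor of basic helix-loop-helix factors, was at 8.66 ± 3.24 against 4.14 ± 1.64 CPM (n = 8 each, log2 fold change 1.04, SE 0.29, adjusted p = 0.0429, edgeR), with overlapping groups. In runners neither passed, with differences of 0.22 for Tgfbi and 0.31 for Id2, and 3 of the 8 targets lay above 0. Fibroblast markers, which include 2 of these targets, lay above 0 in 6 of 6 in sedentary and 1 of 6 in running HCR, with 0 called, and their summed level ranged from 377 to 948 CPM in sedentary HCR against 345 to 745 CPM in sedentary LCR. Macrophage markers lay above 0 in 7 of 7 in sedentary HCR (257 to 400 CPM in sum against 174 to 278 CPM in LCR) and adipocyte markers in 4 of 4 (224 to 448 against 159 to 309 CPM), with 0 called. The part of these markers in the target genes' values was not tested. The list's median was 0.12 in sedentary and -0.11 in running rats.

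Of 28 known partners and substrates of the 3 proteases, 26 were tested, with 0 called in sedentary rats (2.72% of all genes) and 1, or 3.85%, in running rats (0.626% of all genes). This was Nfkbia, the inhibitor of NF-kappaB and a reported USP11 substrate, at 317 ± 96.5 CPM in HCR runners against 217 ± 28.6 CPM in LCR runners (n = 5 each, log2 fold change 0.54, SE 0.12, adjusted p = 0.0213, edgeR). The HCR runners spanned 205 to 394 CPM and so overlapped the LCR runners at 197 to 267 CPM. In sedentary rats the difference was 0.33 (SE 0.10, adjusted p = 0.0548, edgeR). Among the spliceosome recycling factors, Sart3 differed by 0.22 and 0.02 and Prpf3, a USP4 and USP15 substrate, by -0.33 (adjusted p = 0.167) and 0.16 in sedentary and running rats.

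The genes beside Usp11 on the X chromosome did not show its pattern. In RefSeq order (GRCr8) the 5 tested genes on either side are Elk1, Cfp, LOC102555453, Timp1 and Araf, and Cdk16, Uba1, Rbm10, Ndufb11 and Slc9a7. None of the 10 was called between the lines, near the shares of all genes (2.72% in sedentary and 0.626% in running rats). Their smallest adjusted p-values were 0.279 in sedentary and 0.373 in running rats (edgeR). Their log2 differences ranged from -0.19 to 0.73 in sedentary and from -0.60 to 0.55 in running rats. Araf, a RAF kinase gene and the nearest on that side, ranged over the 13 LCR libraries from 42.3 to 69.6 CPM, a 1.64-fold range. Cdk16, a cyclin-dependent kinase gene on the other side, ranged from 40.2 to 62.5 CPM (1.56-fold). Usp11 itself had a 42.3-fold range. The 8 neighbours with a count in every LCR library had ranges of 1.27-fold to 4.58-fold, and none of the 10 exceeded Usp11 in SD. Uba1, which encodes the main ubiquitin-activating enzyme, differed by -0.17 and -0.04. No other gene in the RefSeq table overlaps Usp11.

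**Figure D5:**
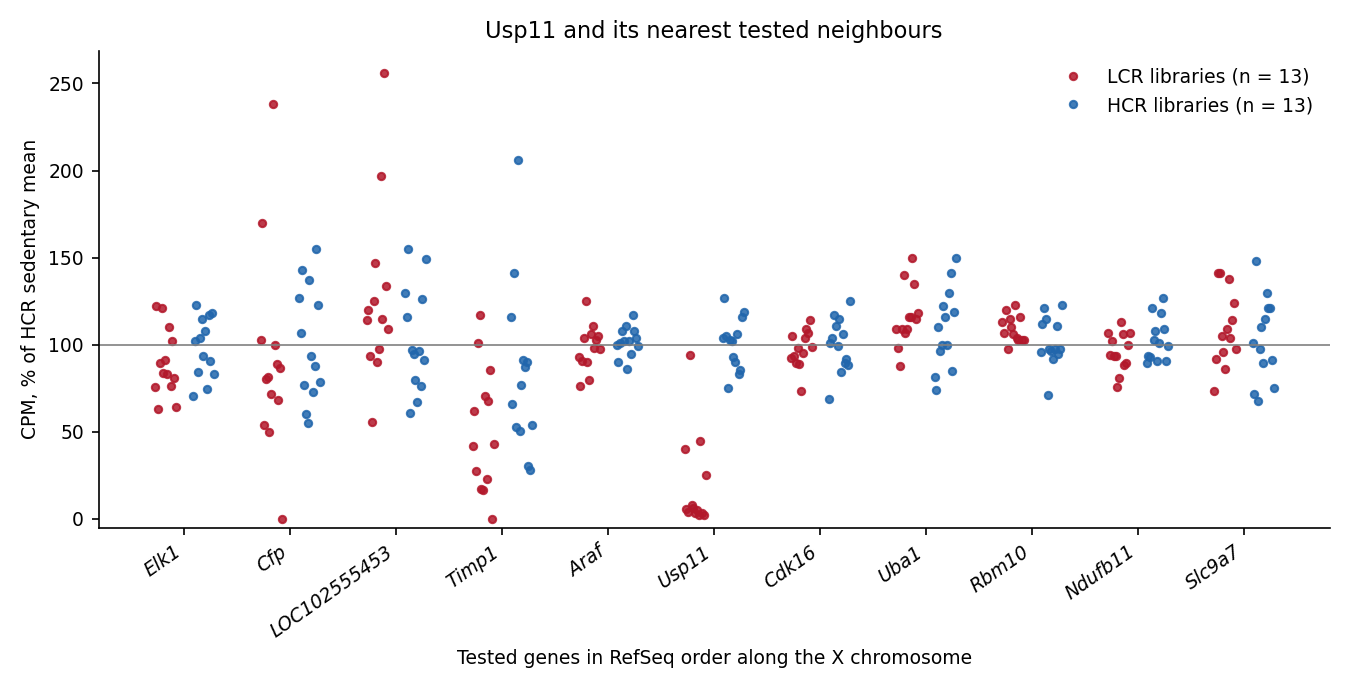
CPM of Usp11 and the 5 nearest tested genes on each side along the X chromosome, as percent of each gene's mean in sedentary HCR, 1 point per library (13 LCR in red, 13 HCR in blue). The low LCR cluster is seen for Usp11, while Araf and Cdk16 lie around 100% in both lines.

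The genes most like Usp11 differed with the set of libraries. Genes with placeholder symbols (those starting with LOC, RGD, AABR or AC) were left out of the ranking. Over all 26 libraries the highest Pearson r of log2 CPM with Usp11 were for Cast, the calpain inhibitor calpastatin (r = 0.796, rho = 0.774), the acyl-CoA dehydrogenase gene Acad11 (0.780, 0.649), the cap-binding protein gene Eif4e3 (0.771, 0.768), the ribosome assembly GTPase gene Gtpbp4 (0.768, 0.766), the fatty acid activating Acsl1 (0.744, 0.698) and Acadsb (0.742, 0.737). All 6 had higher means in both HCR groups, as Usp11 did, so these values carry the line difference. For scale, Acad11 was at 4.88 ± 1.55 CPM in sedentary LCR and 16.7 ± 3.73 CPM in sedentary HCR. Without LCR running 1 and 4, farthest from the median of Usp11, r was 0.705 to 0.813. Usp4 and Usp15 had r of -0.179 and -0.0911.

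Over the 13 LCR libraries alone, 6 other genes led. They were picked in these same libraries as the highest of the 10064 tested genes, less those with placeholder symbols, and are given as a description. Points from 1 library share its depth and composition. They were Wdr36, a ribosome biogenesis gene (r = 0.915, rho = 0.885), the taxilin gene Txlnb (0.841, 0.758), the splicing helicase gene Ddx23 (0.819, 0.879), the cGMP-dependent kinase gene Prkg2 (0.813, 0.775), Foxk2 (0.801, 0.725) and the kinase gene Map3k8 (0.757, 0.753). Without LCR sedentary 4 and LCR running 2 their r was 0.638 to 0.871. Their range was far narrower than that of Usp11. Wdr36 was at 17.4, 19.4, 16.7 and 17.3 CPM in LCR sedentary 1, LCR sedentary 4, LCR running 2 and LCR running 5 and between 12.0 and 15.8 CPM in the other 9. None of the 6 was called between the lines. Usp4 and Usp15 had r of -0.227 and -0.180 with Usp11 in LCR.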

How the data were processed

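Transcript abundance was measured in 26 libraries of rat soleus. Priming was on the poly(A) tail with reads from 1 end, per the labels' protocols, so the counts report the 3′ ends of transcripts. The authors deposited whole-number read counts per gene, not normalised, going by their values. Alignment and counting tools named in the submitters' processing notes are STAR and featureCounts, with cutadapt, UMI-tools, FastQC and MultiQC for trimming, molecular identifiers and quality, and the build is mRatBN7.2 (rn7). Collapsing of identical molecular identifiers and the use of strand in counting are not stated in the sources used here, so true precision may be below the counting intervals. All count columns belonged to a sample, and of 76 pairs within a group none agreed within sampling noise (smallest chi-square per degree of freedom 2.39).

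The tests used edgeR 4.0.16 under R 4.3.3 (quasi-likelihood F test, robust, TMM factors, filterByExpr by group, Benjamini-Hochberg at 0.05 over 10064 genes) in 1 fit of 26 libraries without covariates. SE is the absolute log2 fold change over the root of F, and 95% intervals use the t quantile of the fit's total degrees of freedom. CPM uses library totals, and log2 CPM a prior count of 2. DESeq2 1.42.0 and limma 3.58.1 served as alternatives. Nothing in the labels says that same-numbered rats of different groups are related, so they were not paired. The edgeR p-values rest on a spread between animals that is estimated over all 4 groups and moderated across genes. They do not measure the spread within the groups of a contrast alone.

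The members and the gene lists were chosen with earlier results of these data known. Genes were named by rule: the 3 members, all DUSP-domain proteases, list genes past the threshold in any comparison (or the member of smallest p between the lines), 5 tested neighbours on each side, and the 6 genes of highest r over 26 and over 13 libraries. Genes with placeholder symbols were left out of the ranking by r. Other named genes serve as examples. Promoters come from RefSeq (GRCr8), where all 3 members matched by symbol. Protein sequences were not used here.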

Additional observations from a re-analysis of the deposited data

Results flagged for a closer look

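Within-group gaps were checked for the 3 genes in 4 groups, 12 checks in all, of which chance flags about 1 in 20. Usp11 in LCR sedentary 4 was at 46.8 CPM and the next library of its group, LCR sedentary 1, at 20.0 CPM, a gap of 0.597 of the group's range. Usp11 was selected partly for this spread, so the gap is a description and not a test. Usp15 in LCR running 1 stood apart at 170 CPM, with a gap of 0.868 of a narrow range against a critical value of 0.710 for 5 samples. The group's other 4 libraries lay between 154 and 157 CPM, and the library's own exact Poisson 95% interval, from 151 CPM upward, includes them.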

How the results depend on the processing

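Usp11 was chosen with earlier results of all groups known, so its running values and ratios below are a description too. For Usp11 in running rats the difference stayed above 0 under every setting run and passed the threshold without robust estimation (2.67, adjusted p = 0.0233) and with voom quality weights (3.57, 0.0104). Leaving out single libraries gave 2.36 to 3.75, past the threshold in 2 of 26 cases. In sedentary rats Usp11, selected on that difference and so given as a description, was 2.10 to 3.15 over single libraries left out, and 2.27 when the line came from the title. Its LCR running difference became 0.52 with the title's line and ranged from -1.41 to 0.55 over single libraries left out. Its HCR running difference became -0.18 with the replicate block and -0.17 with the title's line, and the difference between responses -0.69 with the title's line and -0.47 to 1.48 over single libraries. Usp4, near 0, changed sign for LCR running with DESeq2 (0.0018), the title's line (0.037), without the libraries of conflicting title (0.014), voom (0.0034) and single libraries left out (-0.026 to 0.025), for the running lines over single libraries (-0.054 to 0.014), and for the responses with the title's line (-0.0026). The Usp11/Usp4 and Usp11/Usp15 ratio differences lost their call with the title's line (2.53 and 2.38, adjusted p = 0.119 each) and with the replicate block (3.24 and 3.16, 0.0938 each, where the smallest paired exact p is 0.0625). The deviations of same-numbered libraries of the lines had correlations from -0.168 to 0.357 in sedentary and -0.115 to 0.235 in running rats, over 0.1 in 3 of 8 and 2 of 5. The correlation was highest with the own number in 0 of 8 sedentary and 2 of 5 running pairs. These values cannot settle whether same-numbered rats are related. The block changed no other call of the 3 genes. Genes called numbered 0 with the title's line, 35 without the libraries of conflicting title and 35 with only the 2 groups for the running lines (32 to 67 over single libraries, lowest without HCR running 3, then 38 without LCR running 5 and 41 without LCR running 3), 182 to 337 over single libraries for the sedentary lines (lowest without LCR sedentary 7), 79 with DESeq2 for HCR running (4 without HCR running 3 to 38 without HCR sedentary 4, and 25, 22, 19 and 17 without HCR running 1, HCR running 4, LCR sedentary 5 and HCR sedentary 5), and 2 with DESeq2, 2 without a filter, 1 without the libraries of conflicting title and 1 with voom for LCR running (0 to 2 over single libraries). No mean CPM of the 3 genes moved by more than its SD. Depth limits Usp11 in LCR, where 9 libraries hold at most 10 counts.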
